A study of Mus musculus with 9 samples.

Results

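The genes described here encode the hepatic transporters of bile acids and sterols: Slc10a1, Slco1a1, Slco1b2, Abcc3, Abcb11, Abcb4, Atp8b1, Abcc2, Abcg5 and Abcg8. Every bead-array probe whose platform symbol is one of these 10 genes was taken, which gave 15 of 45281 probes and 10 of 19057 gene symbols. Liver RNA was measured in 9 C57BL/6 mice, each 12 h after partial hepatectomy (PHx), the surgical removal of part of the liver. The Etanercept group held 5 livers of mice labelled LTRβ-/-, which lack the lymphotoxin β receptor (gene Ltbr) and were given etanercept 24 h before the operation. The Control group held 4 livers of mice labelled WT with the treatment Control, and what those mice were given is not stated. Etanercept is a soluble TNF receptor fusion protein that binds TNF. Receptor loss and drug were combined in the same mice, and all livers had been operated on, so a difference belongs to the combination in regenerating liver. The labels give neither sex nor age, nor the cells in which the receptor is lost.

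Hepatocytes make bile acids from cholesterol, conjugate them and pump them across the canalicular membrane into bile. Most return from the gut in portal blood and are taken up again at the sinusoidal membrane, and after hepatectomy the remaining hepatocytes receive this return flow. Phospholipid and cholesterol are exported beside the bile acids, and the mixed micelles that form shield the bile ducts from detergent action. Loss of several of these exporters causes inherited cholestasis in humans, and loss of the sterol exporter causes sitosterolaemia.

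Each liver was read on 1 array, named here Etanercept 1 to 5 and Control 1 to 4, and the numbers only name the animals. The labels give a surgery day number for each mouse. Days 1, 2 and 5 hold 1 liver of each group, day 3 holds Control 3 alone, and day 4 holds Etanercept 2 and Etanercept 5 with no control. The arrays lay on 2 slides, each holding both groups. Mean bead signal was 143 intensity units on Etanercept 4 and 336 to 438 on the other 8 arrays, and Etanercept 4 detected 9493 probes, against 13926 to 16186 on the others. Values below are background-corrected, quantile-normalized log2 intensities. They compare livers for 1 probe and do not rank probes or genes against each other. Ltbr itself, read by 1 probe, differed by -0.78 ± 0.35 (SE; limma adjusted p = 0.931), and whether that probe lies in the deleted part is not known here.

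No bile acid or sterol transporter gene passed the test between the groups 12 h after hepatectomy. Of the 10 genes, 9 were measured, meaning that at least 1 probe was detected on at least 4 arrays (detection p under 0.05), and 11 of the 15 probes were kept. Slco1a1 was not detected on any array. Of the 9 measured genes 0 had a Benjamini-Hochberg adjusted p under 0.05 in limma, where 1 of 11559 features (0.00865%) did, and 0 had an unadjusted p under 0.05, against 4.09% of all features. In 0 of the 9 genes did the groups lie apart without overlap, which 0.796% of all features did. With surgery day as a block 0 features passed. When probes were fitted one by one, 0 of 15687 passed (0%). The difference, Etanercept minus Control, was negative for 7 of the 9 genes and for 52.4% of all features. The median difference was -0.16 over the 9 genes and -0.02 over all features. The number of arrays limited the precision: the median standard error over all features was 0.31 on the log2 scale. Fewer hepatocytes and less RNA per hepatocyte cannot be told apart in whole liver.

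**Figure D1:**
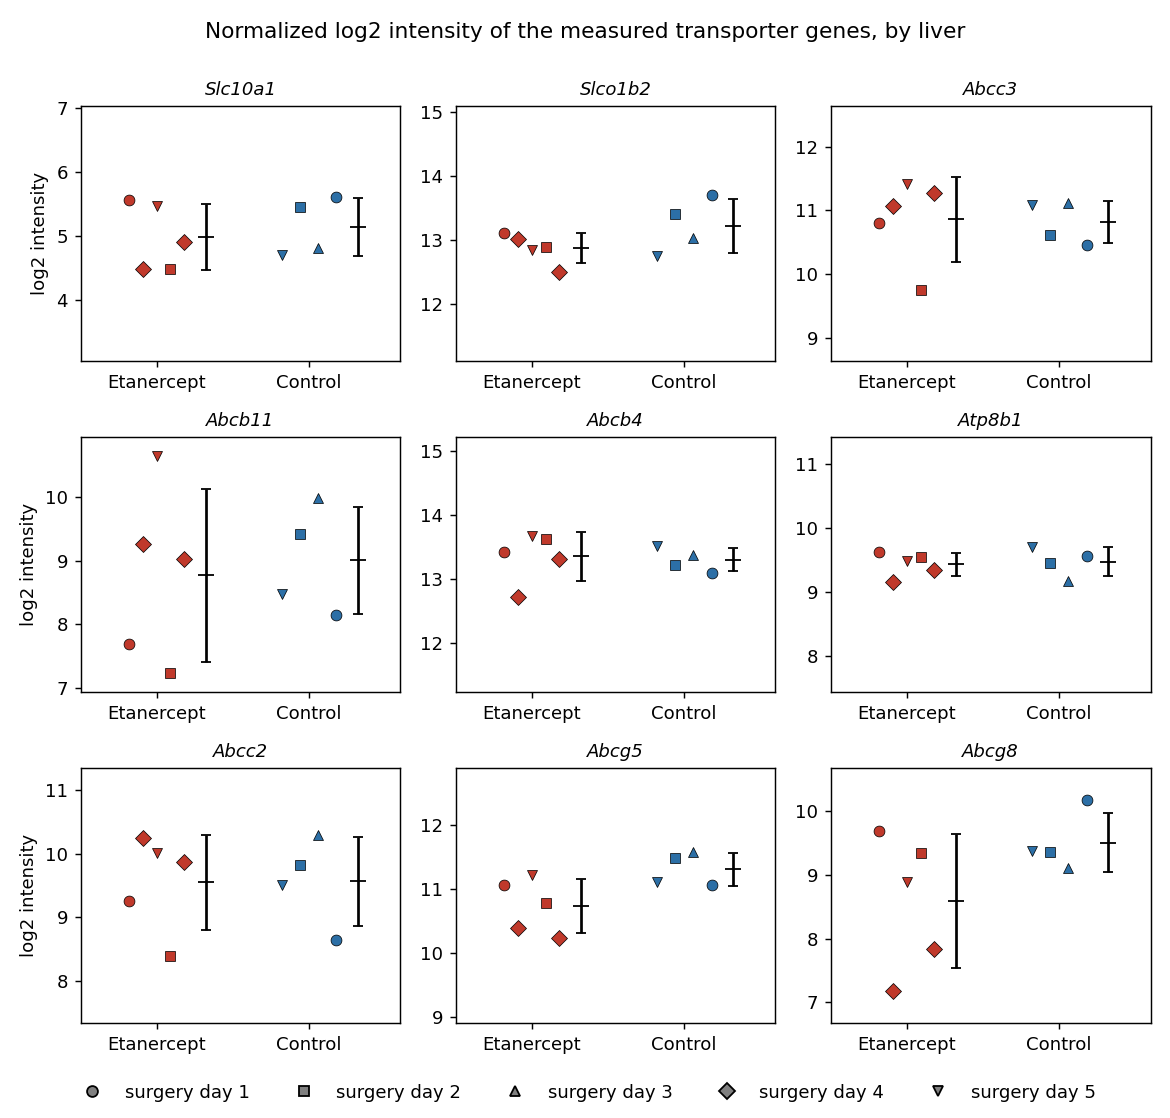
Normalized log2 intensity of the 9 measured transporter genes in each liver, with Etanercept livers (red, n = 5) left of Control livers (blue, n = 4), marker shape giving the surgery day, and bars the group mean ± SD. Each panel spans the same number of log2 units, so the spread can be compared between panels; the groups overlap in all 9, and Abcb11 and Abcg8 are the most spread.

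The genes differed in how far livers lay apart. Abcb11 spanned 3.41 log2 units over the 9 arrays and Abcg8 spanned 3.00, and 3.16% and 6.06% of all features had a larger span. Atp8b1 spanned 0.54, and 97% of features had a larger span. Abcb4 spanned 0.96, Slc10a1 1.12, Slco1b2 1.21, Abcg5 1.35, Abcc3 1.67 and Abcc2 1.89, around a median of 1.45 for all features. The width of the intervals below follows this order in part: the interval of Abcb11 is the widest of the 9 and that of Atp8b1 the narrowest.

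**Figure D2:**
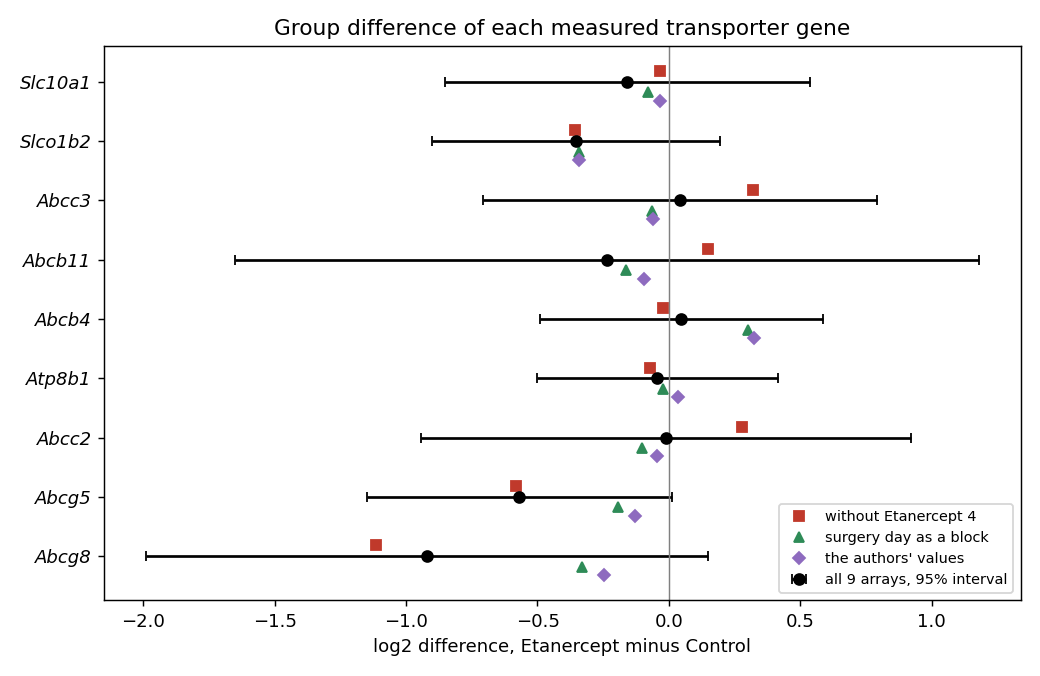
Log2 difference (Etanercept minus Control) of each measured transporter gene, with its 95% interval from the limma fit of all 9 arrays (black), and the same difference without Etanercept 4 (red squares), with surgery day as a block (green triangles) and in the authors' deposited values (purple diamonds). All 9 intervals include 0. Those of Abcg5 (-1.15 to 0.01) and Abcg8 (-1.99 to 0.15) have the lowest upper ends.

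Uptake from blood is carried by Slc10a1, Slco1a1 and Slco1b2, and no difference was found in either gene that could be measured. Slc10a1 encodes NTCP, the sodium-dependent carrier of conjugated bile acids (chromosome 12, 80953185 to 80968705, GRCm38.p6). Its only probe was dim, with a raw signal of 87.7 to 147 and detection in 3 of 5 Etanercept and 2 of 4 Control livers. It read 5.57, 4.49, 5.47, 4.49 and 4.91 in Etanercept 1 to 5, against 4.70, 5.45, 4.81 and 5.61 in Control 1 to 4. Both groups held livers below 5 and livers near 5.5, and they overlapped over almost their whole range. The difference was -0.16 ± 0.32 (SE), with a 95% interval from -0.85 to 0.54 (adjusted p = 0.947), so at this signal a moderate difference in either direction was not detectable. It was -0.04 on day 1, -0.96 on day 2 and 0.77 on day 5.

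Slco1a1 encodes a sodium-independent organic anion carrier of the sinusoidal membrane. Its probe read 85.7 to 123 raw intensity units with detection p between 0.0951 and 0.884, and no difference is given for it. The adult mouse liver is known to express this gene strongly in males and weakly in females. The Y-linked genes Eif2s3y and Kdm5d were each detected on all 9 arrays by their better-detected probe, and by their other probe on few arrays or none. For Y-linked Uty the best-detected probe was detected in 3 of 5 Etanercept and 2 of 4 Control livers. For the sex-linked Xist it was 1 of 5 and 1 of 4. The sex of the mice was not tested.

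Slco1b2 encodes the mouse liver's carrier of unconjugated bile acids, bilirubin conjugates and many drugs (chromosome 6, 141629452 to 141686646). Its brightest probe read 13.11, 13.01, 12.84, 12.89 and 12.49 in Etanercept 1 to 5, and 12.75, 13.41, 13.03 and 13.71 in Control 1 to 4. Controls 2 and 4 lay above every Etanercept liver, while Controls 1 and 3 lay among them. The means were 12.87 ± 0.23 in Etanercept (SD, n = 5) and 13.22 ± 0.42 in Control livers (SD, n = 4), and the difference was -0.35 ± 0.25 (SE; 95% interval -0.90 to 0.19; limma adjusted p = 0.931). It was -0.59, -0.53 and 0.09 on days 1, 2 and 5, and -0.02 on slide 1 against -0.63 on slide 2. A second probe of the gene, detected on 8 of 9 arrays, differed by -0.92 ± 0.71 (SE; adjusted p = 0.959 over probes), and the remaining probe was detected on 0 arrays. The direction of both kept probes was the same, but the second read 5.49 on the dim array Etanercept 4 and 7.38 to 9.65 elsewhere.

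Export back into blood runs through Abcc3, which encodes MRP3, a sinusoidal pump for conjugated bile acids and bilirubin glucuronides that takes over part of the load in cholestasis. Its gene lies on chromosome 11 from 94343295 to 94393017. It read 10.80, 11.07, 11.42, 9.75 and 11.27 in Etanercept 1 to 5, and 11.09, 10.62, 11.11 and 10.46 in Control 1 to 4. The Etanercept livers held both the lowest and the highest values, and the lowest was again Etanercept 4. The means of 10.86 ± 0.66 in Etanercept (SD, n = 5) and 10.82 ± 0.33 in Control livers (SD, n = 4) differed by 0.04 ± 0.34 (SE; 95% interval -0.71 to 0.79; adjusted p = 0.985). Without Etanercept 4 the difference was 0.32, and with median scaling in place of quantile normalization it was -0.20, so its direction is not settled.

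Bile salt export rests on Abcb11, which encodes BSEP, the canalicular pump that drives bile flow (chromosome 2, 69238282 to 69342616). Its probe read 7.69, 9.27, 10.64, 7.23 and 9.03 in Etanercept 1 to 5, against 8.48, 9.42, 9.98 and 8.15 in Control 1 to 4. Livers within a group lay further apart than the groups did: Etanercept 3 was the highest of all and Etanercept 4 the lowest. The means were 8.77 ± 1.36 in Etanercept (SD, n = 5) and 9.01 ± 0.84 in Control livers (SD, n = 4). The difference of -0.24 ± 0.64 (SE) has a 95% interval from -1.65 to 1.18, or from 0.318-fold to 2.26-fold, which leaves room for a difference of more than 2-fold in either direction (adjusted p = 0.959). Within surgery days it was -0.47 on day 1, -2.18 on day 2 and 2.16 on day 5, and without Etanercept 4 it was 0.15.

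Phospholipid export depends on Abcb4, the canalicular floppase that delivers phosphatidylcholine to bile (chromosome 5, 8893614 to 8959226). It was among the tightest of the 9 genes, with 13.43, 12.72, 13.68, 13.63 and 13.31 in Etanercept 1 to 5, and 13.51, 13.23, 13.38 and 13.10 in Control 1 to 4. The control range lay inside the Etanercept range. The means of 13.35 ± 0.38 in Etanercept (SD, n = 5) and 13.30 ± 0.18 in Control livers (SD, n = 4) differed by 0.05 ± 0.24 (SE; 95% interval -0.49 to 0.58; adjusted p = 0.979). The Etanercept liver was the higher one on each shared surgery day, by 0.33, 0.40 and 0.16 on days 1, 2 and 5, but slide 1 gave -0.30 and slide 2 gave 0.30. In the authors' normalized values the difference was 0.32 with a limma adjusted p of 0.0775. Day differences had been removed from those values, while the fit counts 7 residual degrees of freedom, against 3 with a day block, so p-values from them are too small.

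Atp8b1 encodes a flippase that holds aminophospholipids in the inner leaflet and so keeps the canalicular membrane resistant to bile salts. The gene lies on chromosome 18 from 64528979 to 64661272. Of its 3 probes 1 was detected, on all 9 arrays, and the others on 0. The detected probe read 9.63, 9.16, 9.49, 9.54 and 9.34 in Etanercept 1 to 5, against 9.70, 9.46, 9.17 and 9.57 in Control 1 to 4. The groups lay on top of each other, and no other measured transporter gene had so small a spread. The difference was -0.04 ± 0.21 (SE), with a 95% interval from -0.50 to 0.41 (adjusted p = 0.976), and its sign turned in the authors' values (0.03), on slide 2 alone (0.09) and without the livers of day 4 (0.08).

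Abcc2 encodes MRP2, the canalicular exporter of bilirubin glucuronides, glutathione conjugates and sulphated bile acids (chromosome 19, 43782308 to 43838332). Its brighter probe read 9.25, 10.24, 10.02, 8.40 and 9.87 in Etanercept 1 to 5, and 9.51, 9.83, 10.29 and 8.64 in Control 1 to 4. Each group held 1 liver below 8.7 and 1 above 10.2, and the group means of 9.56 ± 0.74 in Etanercept (SD, n = 5) and 9.57 ± 0.70 in Control livers (SD, n = 4) nearly coincided. The difference was -0.01 ± 0.42 (SE; 95% interval -0.94 to 0.92; adjusted p = 0.997), and -0.23 ± 0.34 (SE) by the dimmer probe, which was detected on 6 of 9 arrays. Without Etanercept 4 the brighter probe gave 0.28.

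Array brightness was set beside the spread within groups. The 3 dimmest arrays, Etanercept 4, Etanercept 1 and Control 4 with mean signals of 143, 336 and 356, were the 3 lowest for Abcb11 and for Abcc2. Control 3 was nearly as dim, at 359, and was the highest of all for Abcc2 and the second highest for Abcb11, so the order did not hold beyond those arrays. For Abcc3 the lowest were Etanercept 4, Control 4 and Control 2, and for the second probe of Slco1b2 Etanercept 4 was the lowest. Abcb4, Atp8b1 and Slco1b2's bright probe did not follow this order, and Etanercept 4 was the second highest for Abcb4. The part of array brightness in the group differences was not tested beyond leaving Etanercept 4 out.

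**Figure D3:**
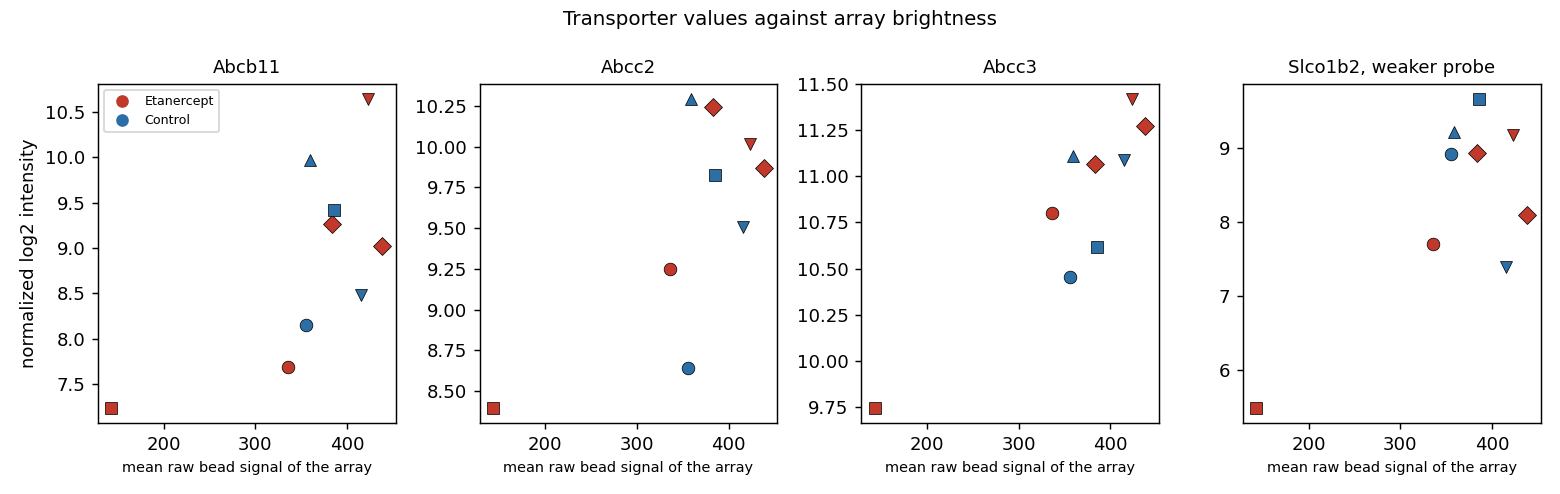
Normalized log2 intensity of Abcb11, Abcc2, Abcc3 and the dimmer kept probe of Slco1b2 (vertical) against the mean raw bead signal of the array in intensity units (horizontal), with Etanercept livers in red, Control livers in blue and 1 marker shape per surgery day. The array at 143, Etanercept 4, is the lowest in all 4 panels, and the other 8 arrays lie between 336 and 438.

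Sterol export is carried by ABCG5 and ABCG8, which work only as a heterodimer that moves cholesterol and plant sterols into bile. Their genes lie on opposite strands of chromosome 17, Abcg5 on the minus strand (84658174 to 84683011) and Abcg8 on the plus strand (84676302 to 84700333), and the spans overlap. RefSeq places the starts of the transcripts used here at 84683011 and 84683121 in GRCm38.p6. For Abcg8 the start nearest to that of Abcg5 was taken. These transcripts start back to back, so the 109 bases between their starts, chr17:84683012-84683120 on the plus strand, are shown, with motif matches in capitals.
Abcg5-Abcg8 intergenic: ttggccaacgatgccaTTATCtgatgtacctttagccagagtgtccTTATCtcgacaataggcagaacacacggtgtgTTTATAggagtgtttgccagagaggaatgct
The capitals mark GATAA on the minus strand (TTATC as printed), the motif of GATA factors, with 2 matches, and TATAAA on the minus strand (TTTATA as printed), with 1 match. They do not overlap. Of 32851 promoter stretches of the same length in the RefSeq table, 9.4% hold GATAA and 5.9% hold TATAAA on either strand. CCAAT and the nuclear receptor motif AGGTCA have 0 matches here on either strand, against 20.1% and 6.4% of stretches with one. A match is a string of letters and not a shown binding site.

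Abcg5 read 11.07, 10.39, 11.22, 10.79 and 10.23 in Etanercept 1 to 5, against 11.11, 11.49, 11.58 and 11.06 in Control 1 to 4. Etanercept 1 and 3 lay within the control range and the other Etanercept livers below it. The means were 10.74 ± 0.43 in Etanercept (SD, n = 5) and 11.31 ± 0.26 in Control livers (SD, n = 4), a difference of -0.57 ± 0.26 (SE) or 0.674-fold. Its 95% interval ran from -1.15 to 0.01 and its adjusted p was 0.931 in limma (unadjusted p = 0.0535).

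Abcg8 read 9.69, 7.18, 8.88, 9.34 and 7.83 in Etanercept 1 to 5, against 9.37, 9.35, 9.11 and 10.18 in Control 1 to 4. Etanercept 2, 3 and 5 lay below every control, and Etanercept 1 and 4 lay among the controls. The means were 8.58 ± 1.05 in Etanercept (SD, n = 5) and 9.50 ± 0.46 in Control livers (SD, n = 4), a difference of -0.92 ± 0.49 (SE) or 0.528-fold. The 95% interval ran from -1.99 to 0.15 and the adjusted p was 0.931 in limma (unadjusted p = 0.0849).

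The negative differences of both genes were larger with than without the livers of surgery day 4. Etanercept 5 and Etanercept 2 read 10.23 and 10.39 for Abcg5, below the 10.79 to 11.58 of the other 7 livers. For Abcg8 they read 7.83 and 7.18, below the 8.88 to 10.18 of the other 7. Of the 9 measured genes these 2 had both day 4 livers below all others, as did 6.59% of all features, and 0 had both above all others, as did 5.71% of features. Without the day 4 livers the difference was -0.28 for Abcg5 and -0.20 for Abcg8, and with surgery day as a block it was -0.19 and -0.33. On the shared days 1, 2 and 5 Abcg5 differed by 0.01, -0.70 and 0.11, and Abcg8 by -0.49, -0.02 and -0.49. Both slides gave nearly the same values, -0.57 and -0.57 for Abcg5 and -0.93 and -0.96 for Abcg8, and each slide holds 1 of the day 4 livers. Day 4 holds no control, so surgery day and group cannot be told apart there.

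In the authors' normalized values the day 4 livers did not stand apart. Abcg5 read 10.93, 10.94, 11.14, 10.74 and 10.94 in Etanercept 1 to 5, against 10.87, 11.27, 11.06 and 11.08 in Control 1 to 4, a difference of -0.13 (limma adjusted p = 0.334). Abcg8 read 9.13, 8.99, 9.09, 9.29 and 9.35 in Etanercept 1 to 5, against 9.56, 9.36, 9.22 and 9.52 in Control 1 to 4, a difference of -0.25 (adjusted p = 0.119). In a fit of those values with group and day, the day coefficients averaged, in absolute size over features, 4.75e-06, 6.48e-06 and 4.39e-06 for days 2, 4 and 5 against day 1. In the values normalized here the same coefficients averaged 0.35, 0.56 and 0.36. Differences between those days are thus absent from the authors' values, and a difference particular to day 4 cannot be read from them.

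**Figure D4:**
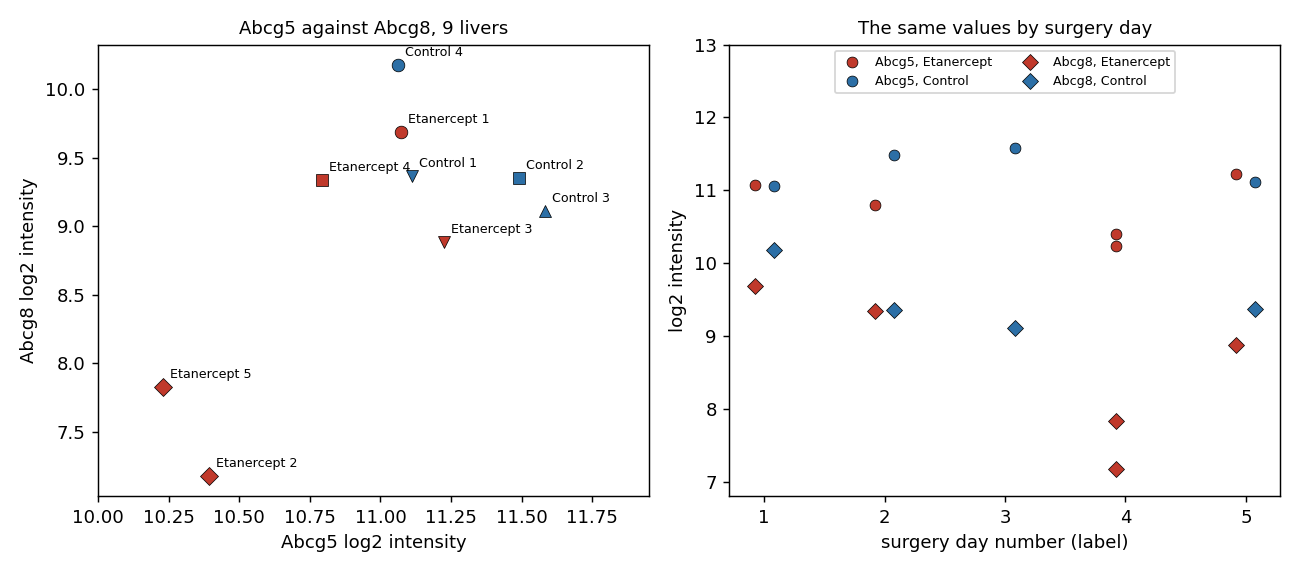
Left, Abcg8 against Abcg5 in normalized log2 intensity, 1 point per liver; right, the same values by surgery day number, with Etanercept livers (red) left of Control livers (blue), circles for Abcg5 and diamonds for Abcg8. Etanercept 2 and Etanercept 5, the livers of day 4, sit at the lower left (Abcg5 10.39 and 10.23, Abcg8 7.18 and 7.83), away from the other 7; the heights of Abcg5 and Abcg8 are not comparable with each other.

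Over the 9 livers Abcg5 and Abcg8 had a Pearson r of 0.682 (exact permutation p = 0.0407, two-sided) and a Spearman rho of 0.283 (exact permutation p = 0.463), the only relation between transporters that was tested. As deviations from the group means r was 0.528 (exact permutation p = 0.144). Without the 2 livers farthest from the Abcg5 median, which are those of day 4, r was -0.370 (exact permutation p = 0.407, n = 7). The relation rests on those 2 livers. In the authors' values r was -0.01 (exact permutation p = 0.972).

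Further genes of bile formation were set beside the transporters, and none of them passed the test either. Of 21 other transporter genes of the hepatocyte or bile duct, 14 were measured, 10 with a negative and 4 with a positive difference, and 0 passed (median -0.12). The 4 with the smallest p were Aqp9, a glycerol and water channel (-0.67 ± 0.33 SE), Abcc6 (-0.60 ± 0.32), Slc51b and the uptake carrier Slco2b1 (-0.28 ± 0.26). Slc51b encodes the β subunit of the sinusoidal bile acid exporter OST and read 8.28, 9.80, 9.99, 7.80 and 10.02 in Etanercept 1 to 5, against 9.65, 6.89, 9.13 and 5.29 in Control 1 to 4. Its difference of 1.44 ± 0.84 (SE; 95% interval -0.42 to 3.29; adjusted p = 0.931) lay within the spread of the controls, and its partner Slc51a was not detected on any array. Of 14 genes of cellular and plasma sterol handling 9 were measured, 6 negative and 3 positive, with 0 past the threshold (median -0.11). Those with the smallest p were Stard4 (-0.52 ± 0.26), a cholesterol carrier, the receptor Lrp1 (-0.48 ± 0.39), the lysosomal Npc2 (0.38 ± 0.31) and the plasma enzyme Lcat (-0.57 ± 0.50).

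Of 13 genes that place or anchor transporters at the canalicular membrane, 10 were measured, 6 negative and 4 positive, and 0 passed (median -0.23). Stx3, an apical membrane fusion protein, differed by 0.86 ± 0.47 (SE). The scaffold genes Pdzk1, Slc9a3r1 and Tjp1 differed by -0.59 ± 0.36, -0.36 ± 0.26 and 0.49 ± 0.52. Transcription factors and receptors known to control the transporters gave 11 measured genes of 16, 7 negative and 4 positive, 1 of them with an unadjusted p under 0.05 on the lower side (2.45% of all features were lower at that level), and 0 passed (median -0.32).

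Nr1i3, the constitutive androstane receptor, which induces Abcc2 and Abcc3 among others, had the smallest p of these regulators. Its brightest probe read 8.09, 6.71, 9.57, 8.08 and 7.24 in Etanercept 1 to 5, against 8.19, 10.42, 9.36 and 9.72 in Control 1 to 4. Other kept probes of the gene, detected in 4 of 5 Etanercept and 4 of 4 Control livers, are not given here. Etanercept 1, 2, 4 and 5 lay below all controls and Etanercept 3 lay among them. The difference was -1.49 ± 0.57 (SE; 95% interval -2.74 to -0.23; unadjusted p = 0.0247; adjusted p = 0.931). The day 4 livers were again the lowest. The sterol sensor Nr1h3, an inducer of Abcg5 and Abcg8, differed by -0.79 ± 0.40, Nr5a2 by -0.68 ± 0.35 and the bile acid sensor Nr1h4, an inducer of Abcb11 and Slc51b, by -0.58 ± 0.33. Nr0b2, the repressor induced by Nr1h4, was detected on 0 arrays.

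Bile acid synthesis gave 13 measured genes of 16, 11 negative and 2 positive, with 0 past the threshold (median -0.32). Klb, the co-receptor through which intestinal FGF signals repress synthesis, differed by -1.01 ± 0.39 (SE; unadjusted p = 0.0264; adjusted p = 0.931). The side-chain racemase Amacr differed by -0.53 ± 0.25, the oxysterol hydroxylase Cyp7b1 by -0.46 ± 0.27 and Cyp2c70, which makes muricholic acids in the mouse, by 0.38 ± 0.23. Cyp7a1, the rate-limiting enzyme, was detected in 0 of 5 Etanercept and 2 of 4 Control livers, too few to be measured. Targets of NRF2, a factor that induces Abcc2 and Abcc3 in oxidative stress, gave 11 measured genes of 12. Of these 11 were positive, while 52.4% of all features had a negative difference. A limma unadjusted p under 0.05 was reached by 3 of the targets (1.64% of all features were higher at that level), and 0 passed the adjusted threshold. Their median was 0.90, with Gsta1 at 3.46 ± 1.13 (SE), Gsta2 at 2.98 ± 1.21, Cbr3 at 1.89 ± 0.78 and Nqo1 at 0.84 ± 0.40. Gsta1 read 13.40, 13.53, 12.72, 13.43 and 13.93 in Etanercept 1 to 5, against 13.74, 7.50, 11.39 and 7.16 in Control 1 to 4. Controls 2 and 4 were far below the other livers, and Control 1 lay above all Etanercept livers but Etanercept 5. The summed level of the list, as a mean log2 deviation, was 0.08 to 1.39 in Etanercept and -1.74 to 0.63 in Control livers. Nfe2l2, which encodes NRF2 itself, differed by -0.32 ± 0.56 (SE), and Abcc2 and Abcc3 by -0.01 and 0.04 on the same arrays.

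**Figure D5:**
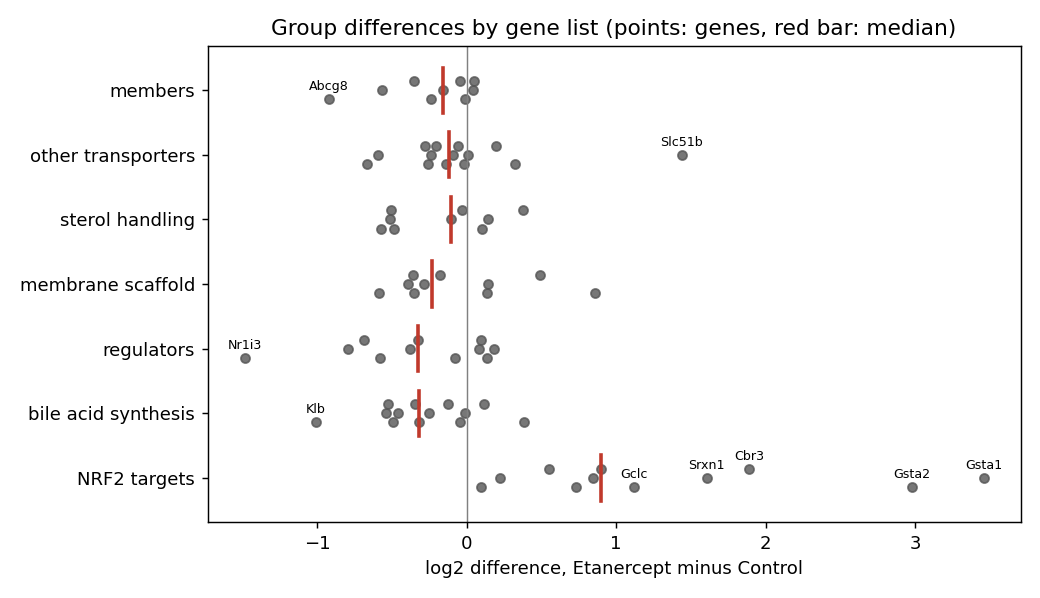
Log2 difference (Etanercept minus Control) of each measured gene, grouped into the 9 transporter genes and 6 lists of related genes, with a red bar at each list's median; dots with an absolute difference above 0.9 carry their names. The medians run from -0.32 to -0.11 except for the NRF2 targets, at 0.90, and no dot passed the adjusted threshold.

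Markers of liver cell types were read beside the transporters. All 7 hepatocyte markers were measured and 0 passed (median -0.12), and their summed level, as a mean log2 deviation, was -0.15 to 0.08 in Etanercept and -0.15 to 0.25 in Control livers. Of 8 bile duct markers 3 were measured, and Krt19 and Epcam were detected on 0 arrays. Of 7 Kupffer cell markers 6 were measured, all 6 with a positive difference (median 0.58), 4 with an unadjusted p under 0.05 (1.64% of all features were higher at that level, and 52.4% had a negative difference) and 0 past the threshold, and their summed level was -0.15 to 0.69 in Etanercept and -0.85 to -0.07 in Control livers. Of 7 stellate cell markers Acta2, which encodes smooth muscle actin, was the 1 feature in the whole test that passed. The brightest of its kept probes differed by 1.68 ± 0.20 (SE; limma adjusted p = 0.0421). Acta2 did not pass with surgery day as a block, with slide as a term or with the mean of a gene's probes. When probes were fitted one by one, 0 of 15687 passed. The 3 stellate cell markers with a negative difference were Lrat at -1.01 ± 0.36 (SE; limma unadjusted p = 0.016; adjusted p = 0.931), Pdgfrb at -0.28 and Col1a1 at -0.24. The other 4, Acta2 among them, had a positive difference, and the median of all 7 was 0.10. Sinusoidal endothelial markers gave 6 of 6 measured, 3 positive and 3 negative, from -0.83 for Fcgr2b to 1.29 (median -0.05). Among them only Fcgr2b had a limma unadjusted p under 0.05 (0.0242), and 2.45% of all features were lower at that level. Lymphocyte markers gave 1 of 5 measured (median 0.17), neutrophil markers 3 of 4 (0.31) and erythroid markers 3 of 3 (-0.01). In each of these lists, the endothelial one included, 0 passed the threshold. The part of cell composition in the transporter values was not tested.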

How the data were processed

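Biotin-labelled cRNA from 9 livers was hybridized to Illumina mouse bead arrays, per the labels' protocols. Per the file headers, the deposited non-normalized table gives each probe on each array a bead intensity, averaged over beads, with its detection p-value. The authors' normalized values, made with Partek per the submitters' processing notes (version not stated), are on a log2 scale by their range. All 27 value columns were used. The genome build behind the probes is not given in the sources used here.

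Intensities were background-corrected and quantile-normalized with limma's neqc (offset 16; negative controls inferred from the detection p-values). A probe was kept when its detection p lay below 0.05 on 4 or more arrays, which left 15687 of 45281. Symbols came from the platform annotation: 34885 probes had 1, 10378 none and 18 several, and 34807 were matched by Entrez ID to RefSeq GRCm38.p6. The probe with the highest mean stood for each gene, which left 11559 features, 9319 of them named. The group comparison used lmFit and eBayes of limma (R 4.3.3, limma 3.58.1), two-sided and without covariates, over all features, with Benjamini-Hochberg adjustment and a threshold of 0.05. The fit was tested on simulated data. Promoter stretches came from RefSeq's GRCm38.p6 table, which held 8 of the 10 genes.

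The transporters, the gene lists (other transporters, sterol handling, membrane placement, regulators, synthesis, NRF2 targets, cell type markers) and the alternatives were chosen with earlier results of these data known. Named were all 10 transporters, up to 4 genes of each pathway list with the smallest p, any past the threshold, and Ltbr. Other genes in the text, such as undetected ones, were singled out after their values were seen. Surgery day numbers in the labels pair arrays of both groups on 3 days. After group means were removed, the correlation across genes between arrays of the same day was 0.17, -0.41 and -0.56 on days 1, 2 and 5, and 0.34 for the day 4 livers. The limma p-values judge a group difference against the spread between these animals, with each feature's variance drawn toward a common value. The exact permutation p-values come from all pairings of the livers' values.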

Additional observations from a re-analysis of the deposited data

Results flagged for a closer look

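Within the groups, 70 checks for a liver far from the others were made over the transporter probes and the named genes of the pathway lists, and 2 exceeded Dixon's critical value, where chance gives about 1 in 20, or 3.5. Stx3, the membrane fusion gene, read 6.78 in Control 1 and 4.96 to 5.23 in the other controls. Klb, the FGF co-receptor gene, read 6.35 in Etanercept 3 and 5.02 to 5.30 in the other Etanercept livers. No transporter probe had such a liver.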

How the results depend on the processing

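Over the 9 genes 225 alternative fits were made, and 0 transporter genes passed the threshold in any of them, while 37 of the differences turned sign. The count over all features was 1 as reported, 5 with median scaling, 1071 in the authors' values (with p-values too small, since day had been removed and 7 residual degrees of freedom were still counted), 10 with array quality weights, and 0 with the mean of a gene's probes, with slide as a term, on slide 1 or slide 2 alone and without the livers of day 4. With surgery day as a replicate block it was 0, also with Etanercept 4 left out as well, and the block changed no transporter call. Leaving out each array in turn gave 0 to 4 features, 4 of them without Etanercept 4.

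Signs turned under median scaling for Slc10a1 (0.13), Abcb4 (-0.13) and Abcc3 (-0.20), in the authors' values for Atp8b1 (0.034) and Abcc3 (-0.060), and with array weights for Abcb4 (-0.026) and Abcc2 (0.15). They turned with the day block for Abcc3 (-0.065), and with day as a random block for Abcc2 (0.020). With the block and Etanercept 4 left out they turned for Slc10a1 (0.39), Abcb11 (0.85), Abcc2 (0.56) and Abcg5 (0.060). Slide as a term turned Abcc2 (0.015), slide 1 alone Abcb4 (-0.30) and Abcc2 (0.079), and slide 2 alone Atp8b1 (0.087). Without the day 4 livers, a choice made after the data were seen, Slc10a1 was 0.031, Atp8b1 0.078 and Abcc3 -0.16. Leaving out single arrays gave -0.71 to 0.15 for Abcb11, -0.031 to 0.20 for Abcb4, -0.32 to 0.28 for Abcc2, -0.10 to 0.32 for Abcc3, -0.14 to 0.031 for Atp8b1, -0.31 to -0.0019 for Slc10a1, -0.52 to -0.19 for Slco1b2, -0.69 to -0.44 for Abcg5 and -1.19 to -0.57 for Abcg8. Abcg8 and Slco1b2 were negative in every fit run (-1.38 to -0.20 and -0.92 to -0.02). The correlation of Abcg5 with Abcg8 was 0.53 on deviations from the group means, -0.37 without the 2 farthest livers, -0.014 in the authors' values and 0.72 without Etanercept 4. The cause of these shifts was not tested. The Slc10a1 probe was detected on 5 of 9 arrays and that of Slco1a1 on 0, which limits what can be said of both.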

Other observations

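Slc51b, the sinusoidal exporter subunit, spread widely among the controls, and 6 of the 11 measured NRF2 targets (Gsta1, Gsta2, Srxn1, Gclc, Nqo1 and Gstm1) had the same order of the controls, as did 6.43% of all features. The Etanercept livers read 7.80 to 10.02 for Slc51b, 12.72 to 13.93 for Gsta1 and 11.40 to 13.93 for Srxn1, a gene of peroxiredoxin repair. Control 1 to 4 read 9.65, 6.89, 9.13 and 5.29 for Slc51b, 13.74, 7.50, 11.39 and 7.16 for Gsta1, and 13.23, 10.44, 11.83 and 9.08 for Srxn1. In these genes Control 1 was the highest of the controls, then Control 3, Control 2 and Control 4, and for Slc51b Controls 1 and 3 lay inside the Etanercept range. Abcc3 had a different order, Control 3 (11.11), Control 1 (11.09), Control 2 (10.62) and Control 4 (10.46). So did Abcc2, with Control 3 (10.29), Control 2 (9.83), Control 1 (9.51) and Control 4 (8.64). The genes were picked after their values were seen, and no test was run on their likeness.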
